A study of Mus musculus with 8 samples.

Results

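The Notch receptor genes Notch1, Notch2, Notch3 and Notch4, the ligand genes Jag1, Jag2, Dll1 and Dll4 and the target repressor genes Hes1 and Hey1 were followed in RNA from mouse pancreatic tumours that had been dissociated and enriched for EpCAM-positive cells by FACS. These 10 genes were taken by symbol from a count table of 24537 genes, and all 10 were found. The 4 tumours labelled KO carried floxed Lifr on both alleles (f/f). Of the 4 tumours labelled WT, replicates 1 and 2 carried 1 floxed Lifr allele (f/+) and replicates 3 and 4 carried none (+/+). Lifr codes for a receptor subunit for leukaemia inhibitory factor. All 8 animals were FVB/NJ mice of 44 to 49 days with both Trp53 alleles floxed (Trp53 f/f), a Cre-activated luciferase reporter at Rosa26 (Rosa26 LSL-Luc) and Cre under the Pdx1 promoter, a driver for the epithelium of the pancreas, so that recombination is not directed at other cells of the tumour. The comparison asks which Notch genes differ in RNA of these sorted tumour samples when floxed Lifr is present on both alleles.

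Notch signalling passes between touching cells. A Delta-like or Jagged ligand on one cell binds a Notch receptor on the next, the receptor is cut by ADAM proteases and then by gamma-secretase, and its intracellular part enters the nucleus. There it joins the DNA-binding protein RBPJ and a Mastermind coactivator and switches on repressor genes of the Hes and Hey families. In the pancreas the pathway is known for keeping progenitors undifferentiated during development, and Hes1 for its expression in duct and centroacinar cells.

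Lifr itself went against its label. It was at 183 ± 34.5 CPM (counts per 1000000 after TMM scaling) in the tumours labelled KO and at 97.8 ± 22.2 CPM in those labelled WT (SD, n = 4 each, log2 fold change 0.90 ± 0.19 SE, edgeR adjusted p = 0.0121). Counts over the whole transcript do not test whether the floxed part was deleted, so groups are named by their labels and every direction rests on them. Gene counts summed to 14938875 to 22698340 per tumour. The epithelial markers of the sort were present in all 8 tumours. Epcam was at 360.3 to 499.0 CPM with the KO label and at 660.3 to 890.4 CPM with the WT label, and was called lower with the KO label (log2 fold change −0.88, edgeR adjusted p = 0.00519). Genes of monocytes and macrophages, which a sort for EpCAM would be meant to remove, were present as well: 14 such genes summed to 22409 to 29299 CPM with the KO label and to 8816 to 15529 CPM with the WT label.

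Per transcript length, Hes1, Jag1 and Notch2 were the most abundant of the 10 genes. Deposited FPKM values (reads per kilobase and per 1000000 reads), which allow levels of different genes to be compared, averaged 21.996 ± 7.78 for Hes1, 17.5 ± 7.88 for Jag1 and 14.1 ± 2.58 for Notch2 over the 8 tumours (SD, n = 8). Then followed Notch1 at 7.08 ± 0.72, Jag2 at 3.40 ± 1.79, Dll1 at 2.23 ± 0.54 and Dll4 at 1.51 ± 0.65 FPKM. Notch4 at 0.81 ± 0.44, Notch3 at 0.51 ± 0.22 and Hey1 at 0.33 ± 0.13 FPKM were lowest. The first 3 genes overlapped in their ranges over tumours (12.1 to 30.6, 11.3 to 34.7 and 10.6 to 17.5 FPKM), so their order is not fixed, whereas Notch1 (6.22 to 8.43) lay below all of them in every tumour. From Notch1 downwards each gene's range also overlapped with that of the next gene in the order. Notch1 and Notch2 were thus the main receptor transcripts in these libraries and Jag1 the main ligand transcript. Hey1 rested on 12 to 37 reads per tumour, which limits its precision.

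**Figure D1:**
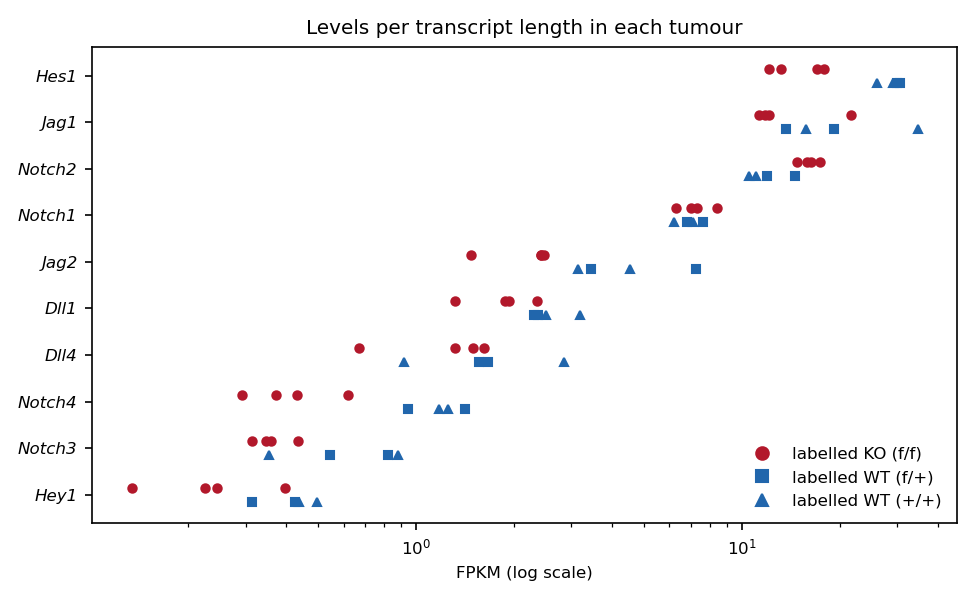
Deposited FPKM values (x axis, log scale) of each gene (y axis, in order of the mean) in the 8 tumours, 1 symbol per tumour, red for labelled KO and blue for labelled WT. Hes1, Jag1 and Notch2 share the top of the range and Hey1, Notch3 and Notch4 lie lowest on average.

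Between the groups, the Notch genes did not move as a block. Notch2 was higher in the tumours labelled KO, whereas Notch4, Jag2 and Hes1 were lower, and the other 6 genes did not pass the test. The test was edgeR's quasi-likelihood test fitted to all 14728 genes that passed the filter on low counts, with Benjamini-Hochberg adjustment over all of them and a call at an adjusted p under 0.05; all 10 Notch genes passed that filter. Calls were thus made for 4 of 10 genes (1 higher, 3 lower), where 21.8% of all tested genes were called, 11.1% higher and 10.8% lower. The median log2 fold change (labelled KO minus labelled WT) was −0.48 over the 10 genes and 0.011 over all genes tested. In the same 4 genes the groups did not overlap, which held for 25.5% of all tested genes (13.1% with the tumours labelled KO above, 12.3% below). With libraries scaled by their totals alone, the median of all genes moved to −0.17 and the split of all calls from 1630 higher and 1586 lower to 900 higher (6.11%) and 3108 lower (21.1%), 27.2% in all. Notch2 stayed called higher and Notch4, Jag2 and Hes1 lower on that scale. With libraries scaled to a list of 20 epithelial genes the median of all genes moved to 0.87, with 75% of all genes called (74.3% higher, 0.693% lower), and the signs of 7 Notch genes turned, as given beside each gene.

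**Figure D2:**
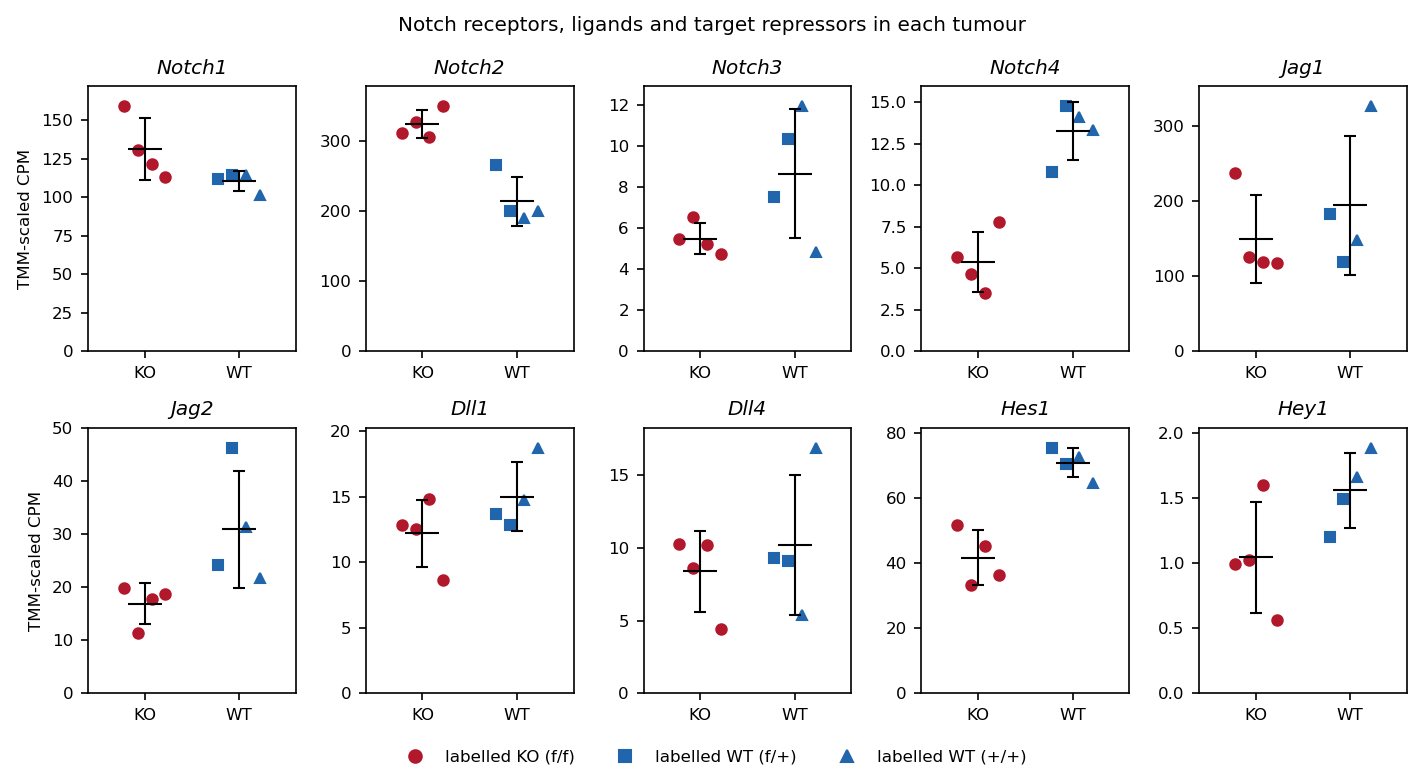
TMM-scaled CPM (y axes, each from 0) of the 10 Notch genes in each tumour, with group means and SD (n = 4) in black; circles are f/f, squares f/+ and triangles +/+ tumours. Notch2 is higher and Notch4, Jag2 and Hes1 are lower in the tumours labelled KO without overlap, and Jag1 has 1 high tumour in each group.

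Among the receptors, Notch2 rose. The counted transcript (NM_010928, mm10 chromosome 3, 98013538 to 98150367, plus strand) was at 311, 326, 305 and 349.6 CPM in replicates 1 to 4 labelled KO and at 265, 200.2, 189.7 and 199 CPM in replicates 1 to 4 labelled WT. The groups were separate, and the f/+ tumour of WT replicate 1 came nearest to the tumours labelled KO. Mean levels of 323 ± 19.8 and 214 ± 34.7 CPM (SD, n = 4 each) gave a 1.51-fold rise (log2 fold change 0.60 ± 0.12 SE, 95% interval 0.33 to 0.87, edgeR adjusted p = 0.0106). The call held with any 1 tumour left out (0.54 to 0.72, highest edgeR adjusted p = 0.0338). Scaled to the epithelial list, the difference was 1.45 and called, against a median of all genes of 0.87.

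Notch4, a receptor best known from vascular endothelium, fell by more than any other of the 10 genes. Its transcript (NM_010929, mm10 chromosome 17, 34564295 to 34588543, plus strand) was at 5.70, 4.64, 3.54 and 7.77 CPM in replicates 1 to 4 labelled KO and at 10.8, 14.8, 14.1 and 13.3 CPM in replicates 1 to 4 labelled WT. No tumour labelled KO reached the lowest tumour labelled WT. The means were 5.41 ± 1.80 and 13.3 ± 1.73 CPM (SD, n = 4 each), so the gene was 2.44-fold lower (log2 fold change −1.29 ± 0.24 SE, edgeR adjusted p = 0.00851). The difference stayed called with any 1 tumour left out (−1.52 to −1.13, highest edgeR adjusted p = 0.0303). Scaled to the epithelial list it was −0.46 and not called (edgeR adjusted p = 0.0948), against a median of all genes of 0.87.

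Markers of endothelium, where Notch4 is best known, are given beside it. The 16 endothelial genes summed to 82.9 to 141 CPM with the KO label and to 63.4 to 114 CPM with the WT label, which overlapped, and none was without counts in every tumour. Of the 12 that were tested, 6 had a positive and 6 a negative log2 difference; Eng rose (1.04), Sox17 fell (−2.13), and 10 did not pass. The uncalled genes ran from −0.45 for Vwf and −0.40 for Esam to 0.20 for Pecam1 and 0.32 for Robo4, and Cldn5, which was not tested, was at 0.23 ± 0.11 against 0.81 ± 0.36 CPM (SD, n = 4 each). Eng, which monocytes and macrophages can also express, made up much of the sum, at 67.0 ± 17.8 against 32.7 ± 13.9 CPM. Relative to the whole list Notch4 had 32.9 to 69.7 counts per 1000 with the KO label against 117 to 234. Without Eng, a choice made after seeing the data, it had 89.9 to 184 against 196 to 354, still without overlap but with the groups close, and the list then summed to 36.9 to 51.5 against 41.9 to 67.8 CPM. The part of endothelial RNA in the Notch4 result was not tested.

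Notch1 and Notch3 were not called. Notch1 (NM_008714, mm10 chromosome 2, 26457902 to 26503822, minus strand) was at 159, 131, 122 and 113 CPM in replicates 1 to 4 labelled KO and at 112, 114, 115 and 101 CPM in replicates 1 to 4 labelled WT. Most tumours of both groups lay close together, with KO replicate 1 the highest (log2 difference 0.25 ± 0.11 SE, edgeR adjusted p = 0.138); the difference was 0.064 with library totals alone and 1.11, then called, with the epithelial scaling. Notch3 (NM_008716, mm10 chromosome 17, 32120893 to 32166852, minus strand), which marks pericytes and vascular smooth muscle, was at 5.50, 6.55, 5.21 and 4.73 CPM in replicates 1 to 4 labelled KO and at 7.50, 10.3, 12.0 and 4.83 CPM in replicates 1 to 4 labelled WT. WT replicate 4 (+/+) sat among the tumours labelled KO while the other 3 lay above them (−0.66 ± 0.27 SE, edgeR adjusted p = 0.119). Without WT replicate 4 the Notch3 difference was −0.86 and called (edgeR adjusted p = 0.0238), and with the epithelial scaling it was 0.25 and not called. The 10 pericyte and smooth muscle markers summed to 88.7 to 192 CPM against 105 to 139 CPM, and none of them was called.

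Summed over the 4 receptors, the level was 435 to 482 CPM with the KO label against 319 to 395 CPM with the WT label, without overlap, and Notch1 and Notch2 made up most of it. The FPKM ratio of Notch2 to Notch1 ran from 1.76 to 2.78 with the KO label and from 1.49 to 2.14 with the WT label, which overlapped. That of Notch4 to Notch2 ran from 0.018 to 0.035 with the KO label and from 0.065 to 0.12 with the WT label, which did not. These ratios are taken within a library, so no scaling between libraries enters them.

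Among the ligands, only Jag2 was called, and its call was the least stable of the 4. Jag2 (NM_010588, mm10 chromosome 12, 112908590 to 112929495, minus strand), a Jagged ligand expressed in epithelia, was at 19.9, 11.3, 17.9 and 18.7 CPM in replicates 1 to 4 labelled KO and at 24.2, 46.4, 31.5 and 21.9 CPM in replicates 1 to 4 labelled WT. The groups did not overlap, but KO replicate 1 and WT replicate 4 were close and WT replicate 2 stood highest. Mean levels of 17.0 ± 3.85 and 31.0 ± 11.1 CPM (SD, n = 4 each) gave a 1.83-fold fall (log2 fold change −0.87 ± 0.26 SE, edgeR adjusted p = 0.0459). The call was lost when any 1 tumour other than WT replicate 4 was left out (−1.002 to −0.61 over all 8, highest edgeR adjusted p = 0.1096), and with no filter on low counts (edgeR adjusted p = 0.0506). With the epithelial scaling the difference was 0.0017, against a median of all genes of 0.87.

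Jag1, the most abundant ligand, varied widely within each group. The gene (NM_013822, mm10 chromosome 2, 137081451 to 137116520, minus strand) was at 238, 126, 118 and 118 CPM in replicates 1 to 4 labelled KO and at 183, 119, 148 and 327 CPM in replicates 1 to 4 labelled WT. KO replicate 1 and WT replicate 4 stood apart from the others of their groups, and the groups overlapped. The log2 difference was −0.37 ± 0.35 (SE, 95% interval −1.16 to 0.42, edgeR adjusted p = 0.482). It went to −0.70 without KO replicate 1, to 0.0012 without WT replicate 4 and to 0.42 with the epithelial scaling.

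The 2 Delta-like ligands were low and were not called. Dll1 (NM_007865, mm10 chromosome 17, 15367354 to 15375823, minus strand), a classical activating ligand, was at 12.8, 12.5, 14.8 and 8.61 CPM in replicates 1 to 4 labelled KO and at 13.7, 12.9, 14.7 and 18.7 CPM in replicates 1 to 4 labelled WT. Dll4 (NM_019454, mm10 chromosome 2, 119325784 to 119335666, plus strand), the ligand of vascular tip cells, was at 10.3, 8.66, 10.2 and 4.40 CPM in replicates 1 to 4 labelled KO and at 9.32, 9.13, 5.42 and 16.9 CPM in replicates 1 to 4 labelled WT. Both genes overlapped between the groups, KO replicate 4 being the lowest tumour and WT replicate 4 the highest for each. The log2 differences were −0.30 ± 0.19 for Dll1 and −0.28 ± 0.37 for Dll4 (SE, edgeR adjusted p = 0.285 and 0.629). Without WT replicate 4 that of Dll4 was 0.075, and with the epithelial scaling both were 0.55. WT replicate 4 also had the highest Jag1 of the 8 tumours.

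Hes1, the main target repressor, fell. This basic helix-loop-helix gene (NM_008235, mm10 chromosome 16, 30065357 to 30067796, plus strand) was at 51.7, 33.3, 45.1 and 36.4 CPM in replicates 1 to 4 labelled KO and at 75.4, 70.5, 72.5 and 64.7 CPM in replicates 1 to 4 labelled WT. The lowest tumour labelled WT lay above the highest labelled KO, and the tumours labelled WT lay close together whatever their Lifr genotype. The means were 41.6 ± 8.36 and 70.8 ± 4.52 CPM (SD, n = 4 each), a 1.70-fold lower level (log2 fold change −0.77 ± 0.14 SE, 95% interval −1.08 to −0.45, edgeR adjusted p = 0.00787). The call held with any 1 tumour left out (−0.90 to −0.67, highest edgeR adjusted p = 0.0226). With the epithelial scaling it was lost, at 0.083 (edgeR adjusted p = 0.657), against a median of all genes of 0.87. Hes1 thus went down where Notch2 went up, and the FPKM ratio of Notch2 to Hes1 was 0.83 to 1.35 with the KO label against 0.36 to 0.49 with the WT label, without overlap.

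Hey1, a related repressor that is prominent in endothelium, was covered by few reads. It (NM_010423, mm10 chromosome 3, 8663359 to 8667038, minus strand) had 20, 15, 23 and 12 reads in replicates 1 to 4 labelled KO and 23, 32, 37 and 32 in replicates 1 to 4 labelled WT, which came to 0.56 to 1.597 CPM against 1.20 to 1.89 CPM. The groups overlapped through KO replicate 3 (1.597 CPM), and the gene was not called (−0.59 ± 0.33 SE, edgeR adjusted p = 0.233). With the epithelial scaling its difference was 0.27.

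Upstream sequences of the called receptors and ligand are shown because RBPJ, the factor through which Notch acts on DNA, was itself among the changed pathway genes. RefSeq windows (GRCm38.p6) were matched for 8 of the 10 genes, without Hes1 and Hey1. The 250 bases before the annotated start are given 5′ to 3′ on the gene's strand, for Notch2 at chr3:98013288-98013537 (plus strand), for Notch4 at chr17:34564045-34564294 (plus strand) and for Jag2 at chr12:112929496-112929745 (minus strand), with matches to any searched motif in capitals.
Notch2: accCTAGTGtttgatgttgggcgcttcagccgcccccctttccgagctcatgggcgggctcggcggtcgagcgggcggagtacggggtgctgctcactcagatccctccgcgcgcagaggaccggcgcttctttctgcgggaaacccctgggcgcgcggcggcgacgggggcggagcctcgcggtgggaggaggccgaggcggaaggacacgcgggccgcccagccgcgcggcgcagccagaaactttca
Notch4: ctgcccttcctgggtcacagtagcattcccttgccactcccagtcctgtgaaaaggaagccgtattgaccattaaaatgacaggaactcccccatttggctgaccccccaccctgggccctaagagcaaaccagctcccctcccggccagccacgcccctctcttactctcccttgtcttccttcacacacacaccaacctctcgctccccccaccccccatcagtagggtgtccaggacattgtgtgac
Jag2: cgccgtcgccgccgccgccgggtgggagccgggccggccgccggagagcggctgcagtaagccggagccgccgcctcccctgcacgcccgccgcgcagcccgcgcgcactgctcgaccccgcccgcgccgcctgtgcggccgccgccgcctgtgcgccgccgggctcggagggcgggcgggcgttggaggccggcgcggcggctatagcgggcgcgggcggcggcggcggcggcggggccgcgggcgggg

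Both strands were searched for the RBPJ motif GTGGGAA, the E-box CACGTG and the N-box CACNAG, a site type bound by Hes proteins; an RBPJ match read on the other strand can share its CAC with an N-box. None of these 3 windows held the RBPJ motif or the E-box, which 5.42% and 6.02% of all 32851 windows of this length held. An N-box was found once in the Notch2 window and in 36.7% of all windows. The windows differed in base composition, with 72.0% G and C in Notch2, 58.4% in Notch4 and 87.2% in Jag2 against a median of 52.4%. A match or its absence describes only these letters.

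The rest of the pathway was read from a list of 55 genes grouped by step, of which 49 were tested. Of these, 8 rose, 2 fell and 39 did not pass, with a median log2 fold change of 0.052. Calls were made for 10 of 49, a share near the 21.8% of all tested genes. The split depended on the scaling, as it did for all genes. On library totals alone it was 5 higher and 9 lower, where 6.11% of all genes were called higher and 21.1% lower. With the epithelial scaling it was 43 higher and 0 lower, where 74.3% of all genes were called higher and 0.693% lower.

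Rbpj, the DNA-binding partner of every Notch receptor, rose most. It was at 139, 109, 115 and 88.3 CPM in replicates 1 to 4 labelled KO and at 48.5, 45.7, 29.6 and 53.1 CPM in replicates 1 to 4 labelled WT. Every tumour labelled KO was above every tumour labelled WT by a wide margin (113 ± 21.0 against 44.2 ± 10.2 CPM, SD, n = 4 each). The rise was 2.55-fold (log2 fold change 1.35 ± 0.20 SE, edgeR adjusted p = 0.00464) and held with any 1 tumour left out (1.20 to 1.45). The FPKM table keeps another Rbpj transcript than the count table. Of the Mastermind coactivators, Maml3 fell (−0.65 ± 0.17 SE, edgeR adjusted p = 0.0292), and was at 0.20 with the epithelial scaling. The call was lost when KO replicate 1, 2 or 3 or either of WT replicates 1 and 3 was left out (highest edgeR adjusted p = 0.0811). It was also lost with only f/+ or only +/+ tumours as controls (edgeR adjusted p = 0.0561 and 0.144). Maml1 (0.043) and Maml2 (−0.29) were not called.

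Fringe enzymes add sugar to the receptors and shift them between Delta-like and Jagged ligands. Lfng was at 193, 161, 126 and 140.0 CPM in replicates 1 to 4 labelled KO and at 76.0, 60.5, 73.0 and 106 CPM in replicates 1 to 4 labelled WT. Its groups did not overlap, and it rose 1.97-fold (log2 fold change 0.98 ± 0.19 SE, edgeR adjusted p = 0.00973). The Lfng call was lost with only +/+ tumours as controls (edgeR adjusted p = 0.0704). Mfng was at 25.4 ± 4.27 CPM against 13.99 ± 3.32 CPM and rose (SD, n = 4 each, edgeR adjusted p = 0.0191). That call was lost without KO replicate 2 (edgeR adjusted p = 0.0507) and with only f/+ or only +/+ controls (0.0578 and 0.0573). Rfng (0.36) was not called, though its groups did not overlap. Neither of the other enzymes of this step, Pofut1 (0.11) and Poglut1 (0.22), passed.

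Among the genes for proteases that cut the receptor, Adam17, a sheddase, rose and was at 176 ± 13.2 against 127 ± 13.0 CPM (SD, n = 4 each, edgeR adjusted p = 0.0109). Its call was lost with only +/+ controls (edgeR adjusted p = 0.0685). Adam10, the principal Notch sheddase, was at a log2 difference of 0.20 and not called, though its groups did not overlap. Among 9 genes of receptor traffic and turnover, the ubiquitin ligase genes Itch (0.51) and Dtx3l (0.65) rose and the endocytic adaptor gene Numbl fell (−0.88). The calls of Itch and Dtx3l were lost with library totals alone (edgeR adjusted p = 0.0527 and 0.0565), and that of Dtx3l also without WT replicate 3 (0.05003). Both were also lost on FPKM values. With only f/+ controls they were at 0.0503 and 0.112, and with only +/+ controls at 0.101 and 0.0637 (edgeR adjusted p). The Numbl call was lost in the same 5 cases of 1 tumour left out as for Maml3 (highest edgeR adjusted p = 0.0866). It was also lost with only +/+ controls (edgeR adjusted p = 0.140) and with the epithelial scaling (−0.033, edgeR adjusted p = 0.908).

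Other target repressors gave no call. Of 8 such genes 5 were tested, and Hes6 had the smallest p, at 31.2 ± 2.23 against 38.1 ± 3.23 CPM (SD, n = 4 each, log2 difference −0.29, edgeR adjusted p = 0.0503). The Hes6 groups did not overlap, and the gene was called lower under 8 alternatives, library totals alone among them (−0.46), and higher with the epithelial scaling (0.56). Of 10 corepressor genes only Tle4, a Groucho-family corepressor, rose (0.42 ± 0.08 SE, edgeR adjusted p = 0.0101). The Tle4 call held with any 1 tumour left out (highest edgeR adjusted p = 0.0345). It was lost with only f/+ or only +/+ controls (edgeR adjusted p = 0.0549 and 0.0503). The same held with KO replicate 1 and WT replicate 2 both left out (0.0552). FPKM values, which are for another Tle4 transcript than the counts, did not give the call either (highest limma adjusted p = 0.0814). None of 5 genes for ligand ubiquitin ligases was called (Mib1 0.23, without overlap, edgeR adjusted p = 0.0593). Dlk1, the 1 tested gene of 4 for other ligands, was not called either and ranged from 0.55 to 14.4 CPM over the tumours.

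**Figure D3:**
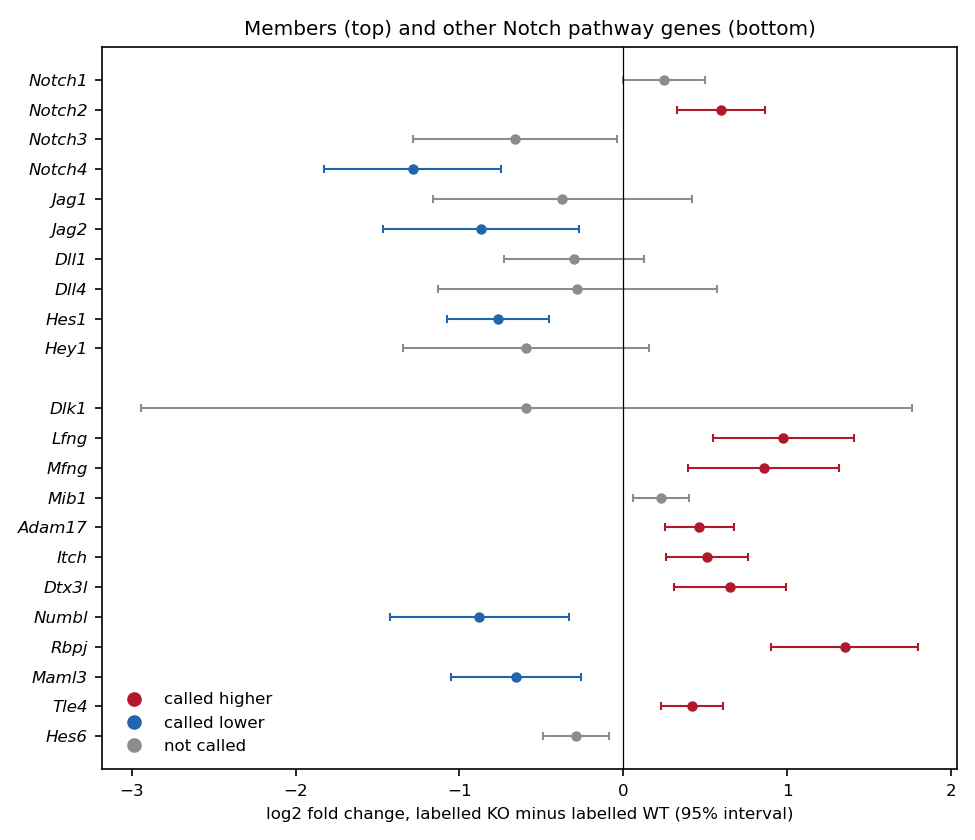
Log2 fold changes (x axis, labelled KO minus labelled WT) with 95% intervals from the edgeR fit, for the 10 Notch genes above and the named genes of the rest of the pathway below; red marks genes called higher, blue lower and grey not called. Rbpj is the farthest to the right and Notch4 the farthest to the left among the called genes.

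The tumours labelled WT were then divided by Lifr genotype. In a joint fit of the 3 genotypes (15284 genes), f/f against f/+ tumours called Notch4 (−1.23) and Hes1 (−0.81), where 13.3% of all genes were called. Against +/+ tumours the calls were Notch4 (−1.33), Hes1 (−0.72) and Notch2 (0.73), where 6.79% of all genes were called. Notch2 against f/+ tumours was at 0.48 ± 0.13 (SE, edgeR adjusted p = 0.0545), and f/+ did not pass against +/+ for it (0.26, edgeR adjusted p = 0.983). Jag2 was called against neither (−1.05 and −0.65, edgeR adjusted p = 0.0594 and 0.226). These contrasts share the 4 tumours labelled KO and are not independent. Between f/+ and +/+ tumours none of the 10 genes was called by edgeR (0 at an unadjusted p under 0.05), where 1 of all genes was (0.00654%), BC018473, named here after its value was seen. Jag1 differed most by size between them (−0.65 ± 0.47 SE for f/+ minus +/+), within its error. Rbpj was called against both (1.26 and 1.45).

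Markers of several cell classes moved with the groups. The 20 epithelial genes summed to 4208 to 5752 CPM with the KO label and to 7883 to 10449 CPM with the WT label, without overlap, with 17 of 20 called lower and none rising. The 14 monocyte and macrophage genes also did not overlap in their sum, with 12 of 14 called higher, and 7 of 8 shared leukocyte genes rose. Of 10 fibroblast genes 2 rose, Fap (1.16) and Dpt (3.005), 9 had a positive difference (median 1.16), and their sum was 768 to 4244 CPM against 414 to 1525 CPM, with overlap. All 10 acinar genes had a positive difference (median 2.98) and none was called, with sums of 1722 to 38648 CPM against 406 to 7943 CPM. No gene of these lists lacked counts in every tumour. In bulk RNA, fewer cells of a type and less RNA per cell cannot be told apart. The part of these shifts in the Notch results was not tested; the levels within each library are given instead.

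Relative to the epithelial list, Hes1 and Jag2 no longer separated the groups. Hes1 had 9.74, 7.91, 9.24 and 6.33 counts per 1000 epithelial counts in replicates 1 to 4 labelled KO and 8.75, 6.75, 7.65 and 8.21 in replicates 1 to 4 labelled WT. Jag2 ranged from 2.69 to 3.75 against 2.77 to 4.44, and Notch4 from 0.73 to 1.35 against 1.26 to 1.69, with the groups overlapping in both. Notch2 stood at 58.6 to 77.5 against 19.2 to 30.8 and Rbpj at 15.4 to 26.3 against 3.13 to 6.73, both farther apart than in CPM. That widening follows from the divisor, because the list itself was lower with the KO label (4208 to 5752 against 7883 to 10449 CPM). Notch1, whose groups overlapped in CPM, was at 19.7 to 31.1 against 10.9 to 13.0 on this scale, without overlap. With libraries scaled to this list, 74.3% of all tested genes were called higher. The share of all genes without overlap in these ratios was not counted.

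Relative to the monocyte and macrophage list, the picture was the opposite. Rbpj had 4.76, 3.81, 5.12 and 3.32 counts per 1000 counts of that list in replicates 1 to 4 labelled KO and 4.03, 5.17, 3.36 and 3.42 in replicates 1 to 4 labelled WT, so its groups overlapped throughout. Lfng (5.27 to 6.60 against 6.31 to 8.28) and Mfng (0.67 to 1.21 against 0.998 to 1.73) overlapped too. Notch2 overlapped on this scale (10.6 to 13.6 against 12.8 to 22.7) through WT replicate 4, and the other 3 tumours labelled WT lay above all 4 labelled KO. Hes1 was at 1.16 to 2.01 against 4.17 to 8.23, without overlap, and the other 8 Notch genes were also lower without overlap. The list itself was higher with the KO label (22409 to 29299 against 8816 to 15529 CPM). Any gene that does not rise with the list is lowered on this scale. The share of all genes without overlap on it was not counted, so whether these separations are particular to the Notch genes is not known. Which cells the reads came from cannot be told apart in these libraries.

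**Figure D4:**
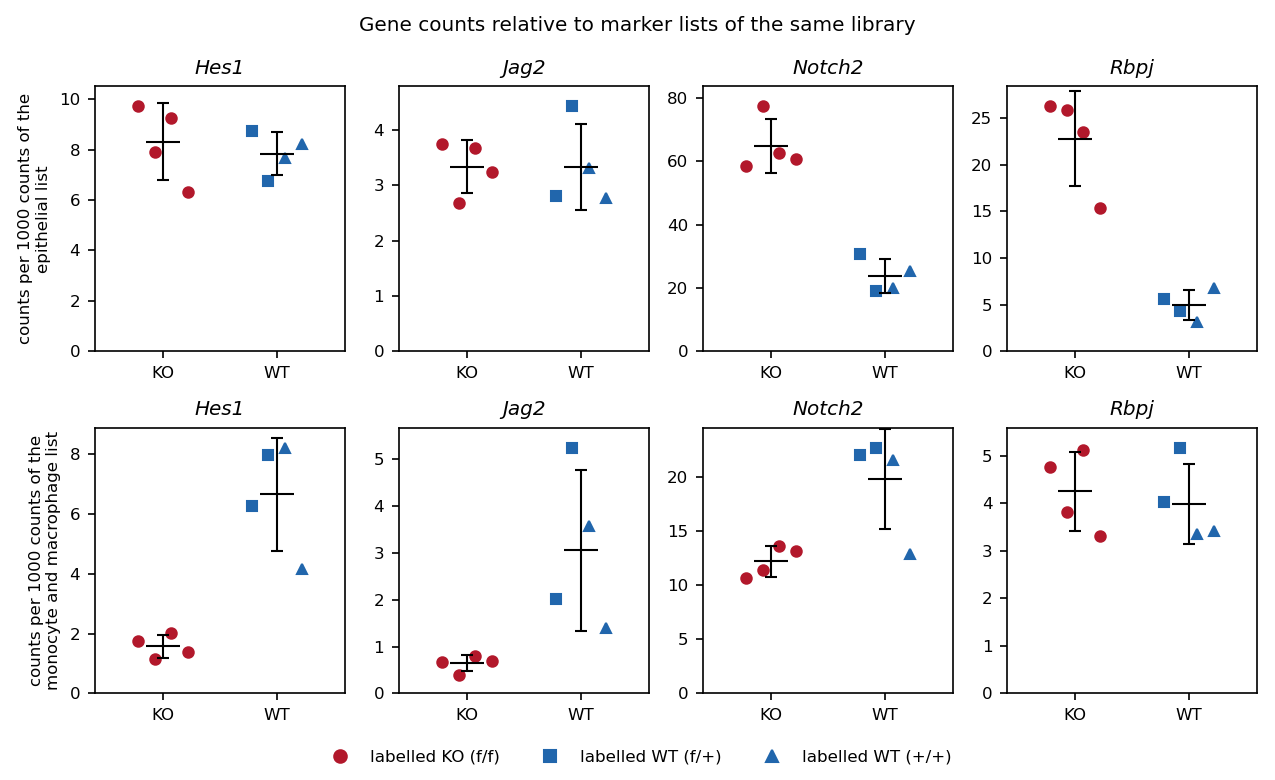
Counts of Hes1, Jag2, Notch2 and Rbpj per 1000 counts of the epithelial list (top) and of the monocyte and macrophage list (bottom) of the same library, 1 symbol per tumour with group means and SD (n = 4). Hes1 and Jag2 overlap between the groups on the upper scale and Rbpj on the lower.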

How the data were processed

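RNA of EpCAM-positive cells of 8 tumours was sequenced, with 1 library per tumour. The authors deposited raw gene counts and FPKM values. HOMER's analyzeRepeats.pl gave the raw counts over exons in mm10, with its strand option at plus and transcripts condensed to 1 for each gene (per the file headers), and the deposited FPKM values come from the same program with a normalization setting of 1000000. The submitters' processing notes also name FastQC 0.11.2, STAR 2.4.0k and edgeR 3.6.8, with no role. Whether the libraries were stranded is not given in the sources used here; in GENCODE M21 a gene on the opposite strand overlaps Notch1, Notch3, Notch4, Dll1 and Dll4, and their reads may be mixed. For all 10 genes both tables keep the same transcript.

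The test was edgeR's glmQLFTest after glmQLFit (edgeR 4.0.16 in R 4.3.3, TMM scaling, filterByExpr with minimum count 10 and minimum total 15) by labelled group. Groups come from the titles and Lifr genotypes from the genotype labels. Replicate numbers follow accession order and pair nothing. Tumours were dissected individually per the labels, and p-values set the difference between the groups compared against the spread between these tumours. Every pair of libraries within a group differed by more than counting noise (chi-square divided by its degrees of freedom at least 32.4). Alternatives used limma 3.58.1 on log2(FPKM + 1) or log2(FPKM + 0.1), DESeq2 1.42.0, other scalings and subsets of tumours. The tests were first tested on simulated counts.

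The 10 genes, the pathway and marker lists and the alternatives were chosen with earlier results of these data known. Named beyond the 10 genes were Lifr, Rbpj, up to 3 called genes with the smallest p of each pathway group (or 1 where none was called) and, in the closing section, the nearest genes by pattern; other genes given are marker genes or remaining genes of a group. One allele that all mice carried and 1 pathway gene are not reported here by name.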

Additional observations from a re-analysis of the deposited data

Results flagged for a closer look

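In 6 of 48 sets of 4 tumours (24 genes in 2 groups) a single tumour lay far from the other 3 by Dixon's test at its 95% level, where chance flags about 1 in 20. Jag1 was at 238 CPM in KO replicate 1, against 118 to 126 in the others labelled KO. WT replicate 1 had a Notch2 level of 265 CPM, the others of its label 189.7 to 200.2. Dlk1 was at 12.8 CPM in KO replicate 3 against 0.55 to 1.34, and Adam17 at 195 CPM in KO replicate 2 against 168 to 171. WT replicate 2 had the lowest Mfng of its group (9.03 CPM, the others 15.3 to 16.1), and WT replicate 4 the highest Itch (165 CPM, the others 142 to 144).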

How the results depend on the processing

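Of the 4 called Notch genes, Notch2, Notch4 and Hes1 stayed called with any 1 tumour left out, under other edgeR scalings except that to the epithelial list (where only Notch2 stayed called), with DESeq2, with no filter, and on FPKM values where they were tested. Leaving out 1 tumour gave 1755 to 3241 called genes in all (1755 without KO replicate 2, 2077 without WT replicate 3), 3 to 5 called Notch genes and 6 to 14 called genes of the pathway list (6 without KO replicate 2). Against the main 3216, 4 and 10, the counts were 11049, 2 and 43 with the epithelial scaling, 1926, 2 and 5 with only f/+ controls, 1106, 2 and 1 with only +/+ controls, and 47, 0 and 0 with the number of floxed Lifr alleles as a linear term. Without the most acinar tumour of each group (KO replicate 1 and WT replicate 2) they were 1892 in all and 5 of the pathway list. The subsets hold fewer tumours; for the other settings the cause was not tested. With the epithelial scaling the log2 fold change turned to 0.25 for Notch3, 0.42 for Jag1, 0.0017 for Jag2, 0.55 for Dll1, 0.55 for Dll4, 0.083 for Hes1, 0.27 for Hey1, 0.39 for Dlk1, 0.20 for Maml3 and 0.56 for Hes6. With 1 tumour left out Jag1 ranged from −0.70 to 0.0012, Dll4 from −0.49 to 0.075 and Dlk1 from −2.52 to 0.37. Dlk1 was also at 0.41 with only +/+ controls, 0.0040 with the linear term and 0.67 without the most acinar tumours. With only +/+ controls Hes1 was not called (edgeR adjusted p = 0.0586), nor was Notch2 with only f/+ controls (0.0779). No paired analysis was possible because the labels carry no replicate numbers shared between the groups. Depth limits Hey1 and the 6 untested pathway genes (at most 22 reads in a tumour).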

Other observations

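The genes most alike to each Notch gene in pattern over the 8 tumours were found by the root mean square difference in log2 CPM after each gene was centred on its own mean, among the 12940 tested genes whose log2 CPM averaged 1 or more. For Hes1 the 3 nearest were Efnb2 (0.099), Shroom3 (0.099) and Sox9 (0.10), against a spread of Hes1 itself of 0.43. For Notch2 they were Cbl (0.058), Swap70 (0.077) and Kdm7a (0.084), against 0.34. For Notch4 they were Wnt7a (0.16), the keratin gene Krt7 (0.20) and Serpinb5 (0.20), against 0.73. For Jag2 they were Sdcbp2 (0.12), Ppl (0.14) and Rnf43 (0.16), against 0.56. For Jag1, which had a high tumour in each group, they were Hic1 (0.17), Inhba (0.21) and Gja1 (0.22), against 0.51. For Dll4 they were Smoc2 (0.13), Podn (0.18) and Lrp2 (0.18), against 0.55. For a called gene this measure mostly follows the group difference, and with 8 libraries it is a description only.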
